A study of Mus musculus with 9 samples.

Results

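Granzymes, the pore former perforin, receptors of natural killer (NK) cells and the interleukin-15 system were followed in the mouse brain 2 days after injection of a baculovirus vector. The group holds 10 genes: Gzma, Gzmb, Prf1, Nkg7, Klrd1, Klrk1, Ncr1, Il2rb, Il15 and Il15ra. Every probe set that the platform annotation gives to just 1 of these symbols was taken, whatever its values, which gave 13 of the 45101 probe sets on the array. Prf1, Il2rb and Il15ra have 2 probe sets each and the other genes have 1. A filter on dim probe sets left 28257 probe sets and 13331 genes to be tested, and 10 probe sets of 8 of these genes were among them. The probe sets of Ncr1 (1422089_at) and Il15 (1418219_at) and one of Il2rb (1448759_at) did not pass it, and their differences come from a fit without the filter.

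NK cells and cytotoxic T cells kill by releasing granules against the membrane of a target cell. Perforin opens that membrane, and the granzymes, which are serine proteases, enter and cleave proteins that set off death of the target. Interleukin-15, shown to lymphocytes on its own receptor alpha chain, keeps NK cells alive and raises their granzyme content through the beta chain that the receptors for interleukin-2 and interleukin-15 share. Few such lymphocytes reside in the healthy brain, and they enter it from the blood during viral infection.

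The mice were adult BALB/c males with an intact immune system. The vector, BV-HSVtk, derives from an insect virus, and 100000000 particles in 10 µL were put into the striatum on each side. Vector for the HS group was purified by high-speed centrifugation, and vector for the MC+HS group by membrane chromatography before centrifugation. Mock mice received virus-free medium of Sf9 insect cells that had gone through the MC+HS steps, so HS and mock differ in vector and purification at once, and the effects of these cannot be told apart. No uninjected brain was among the samples, and all groups share the injection wound. Each group held 3 mice with 1 array each (n = 3 throughout unless an array is left out), labelled as biological replicates.

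Array medians ranged from 147 to 263 intensity units and were brought to a common median, and the values below are these normalized signals on the linear scale. Genes of striatal neurons were all above the filter (9 of 9 named), as the tissue label requires. HS replicate 1 stood apart. Its median correlation with the other arrays was 0.757, against 0.956 to 0.979 for the rest. Its ratio of 3' to 5' Gapdh probe sets was 2.00, against 0.865 to 0.932, and the summed signal of its striatal neuron genes was 24797, against 39870 to 49616. The log2 signals of this array had a standard deviation of 1.32, where the rest had 1.61 to 1.70. The 40th percentile of its signals was 123, where the rest had 91.9 to 101. Il2rb 1448759_at read higher on HS replicate 1 than on the rest. It ranked at the 58.3rd percentile there, against the 4.9th to 38.4th on the other arrays. Whether the higher 40th percentile of this array bears on such dim probe sets was not tested. Single probe sets also read lower on it, as Prf1 1450335_at and Il2rb 1417546_at did. The median gene was 0.23 lower on the log2 scale in HS than in mock, and 0.05 higher once this array was left out. Values of the members that involve HS are therefore given with all arrays and, for the main ones, also without it.

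With all 9 arrays, the 2 granzymes were the members called higher, and without HS replicate 1 Nkg7 and, in HS, Il15ra joined them. Gzma encodes granzyme A, a protease that cuts after basic residues, and Gzmb encodes granzyme B, which cuts after aspartate and activates caspases in the target cell. Both were called higher (limma, Benjamini-Hochberg adjusted p under 0.05) in each vector group than in mock. In each comparison they made 2 of the 8 tested members, where 0.893% of all genes were called higher in HS and 0.690% in MC+HS. Both comparisons use the same 3 mock arrays, so their values stand side by side and are not separate evidence. In bulk tissue, more cells that carry these transcripts and more transcript per cell cannot be told apart.

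Gzma (1417898_a_at) gave normalized signals of 46.3, 72.1 and 38.4 on mock arrays 1 to 3. In HS the signals were 509.9, 753 and 1038, and in MC+HS they were 320.2, 608 and 436. The lowest vector-injected array was well above the highest mock array, so the groups did not overlap. On the log2(signal + 16) scale Gzma was 3.49 ± 0.31 higher in HS than in mock (SE; 95% confidence interval 2.78 to 4.20; 11.3-fold; limma adjusted p = 0.0022). In MC+HS it was 2.77 ± 0.31 higher (2.06 to 3.48; 6.82-fold; limma adjusted p = 0.00782). On mock arrays the probe set ranked between the 22.1st and 34.7th percentile of all signals, and in HS it ranked between the 77.4th and 83.9th.

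Gzmb (1419060_at) was at the dim end of the mock arrays, with signals of 13.9, 8.7 and 13.6. It reached 298, 1228 and 1224 in HS and 349, 1040.5 and 563 in MC+HS. Every vector-injected array thus lay far above every mock array, while HS replicate 1 and MC+HS replicate 1 were the lowest of their groups. The rise was 4.81 ± 0.55 in HS (3.58 to 6.04; limma adjusted p = 0.00603) and 4.44 ± 0.55 in MC+HS (3.21 to 5.67; limma adjusted p = 0.0118). The mock signals ranked between the 9.4th and 11.9th percentile, no detection calls were used, and they are close to the pseudocount of 16, so the size of the rise depends on that setting and no fold is given. With a pseudocount of 1 the log2 differences of Gzmb were 5.89 and 5.54, and with 64 they were 3.51 and 3.11. For Gzma the same settings gave 3.84 and 3.11, and 2.83 and 2.12, and every one of these was called.

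Which arrays entered the fit bore on the calls. Without HS replicate 1 the rises in HS were 3.75 ± 0.27 for Gzma (limma adjusted p = 3.05e-05) and 5.47 ± 0.33 for Gzmb (1.28e-05), and in MC+HS the adjusted p fell to 0.000118 and 2.87e-05. With all arrays of HS kept, leaving out MC+HS replicate 2 or 3 or mock replicate 1 or 3 ended both calls in MC+HS, with limma adjusted p of 0.0586 to 0.0667 for Gzma and 0.0708 to 0.0779 for Gzmb. With only the 6 arrays of HS and mock in the fit, Gzmb had an adjusted p of 0.0641. Where HS replicate 1 was left out together with any 1 further array, Gzma, Gzmb and Nkg7 were called higher in both comparisons in all 8 such fits.

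**Figure D1:**
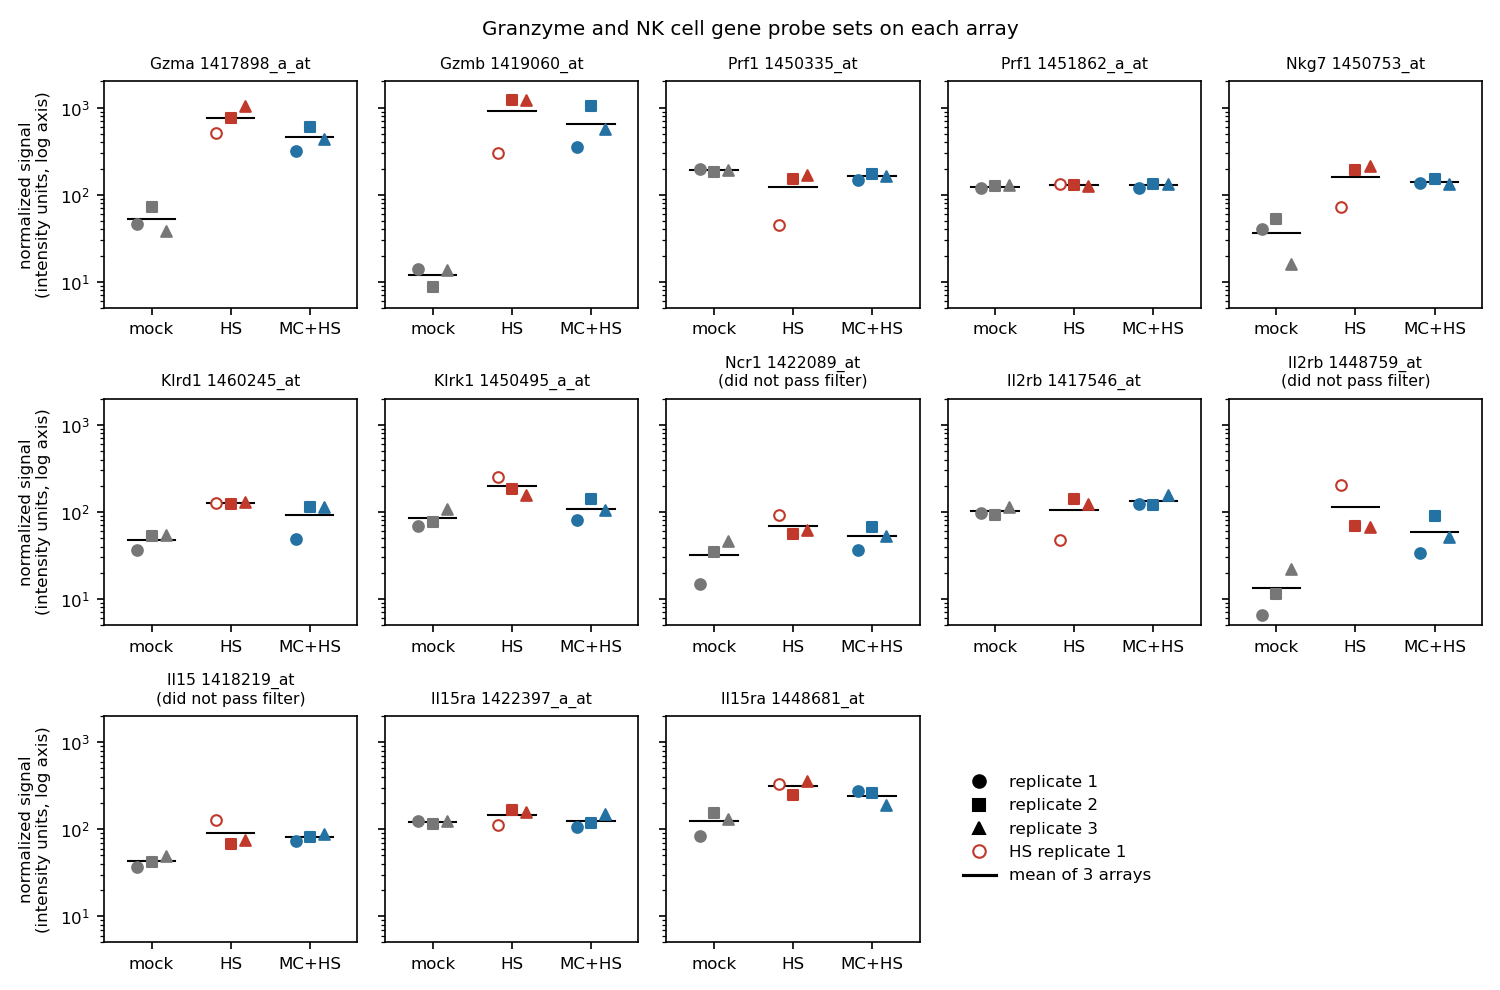
Normalized signal of each of the 13 probe sets on a log axis, 1 point per array, by group (mock, HS, MC+HS), with a bar at the group mean and HS replicate 1 as an open circle. Gzma and Gzmb in the vector-injected mice sit above all mock arrays, with Gzmb at 8.7 to 13.9 in mock and 298 to 1228 in HS, while Prf1 stays between 118 and 134 on its probe set 1451862_a_at.

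Prf1, which encodes perforin, was not called. On the main Prf1 probe set (1450335_at, the brighter on average) the signals were 197, 182 and 190.2 in mock. They were 44.6, 151 and 169 in HS and 149, 173 and 164 in MC+HS. All vector-injected arrays were below all mock arrays here, HS replicate 1 by the widest gap. The log2 difference was -0.74 ± 0.37 in HS (limma adjusted p = 0.635), or -0.23 ± 0.14 without HS replicate 1 (0.536), and -0.21 ± 0.37 in MC+HS (adjusted p = 1), so neither passed the test. On the other Prf1 probe set (1451862_a_at) signals ran from 118 to 129 in mock, 126 to 131 in HS and 119 to 134 in MC+HS, and the groups overlapped. Its differences were 0.05 ± 0.14 in HS (95% interval -0.26 to 0.36) and 0.04 ± 0.14 in MC+HS (-0.27 to 0.35). A rise in the signal of this probe set as large as that of either granzyme lies outside these intervals. No detection calls were used, and whether the probe set follows its transcript was not tested, so the intervals set no bound on the Prf1 transcript. Both probe sets were near the middle of the signals on every array but HS replicate 1, where 1450335_at fell to the 13.2nd percentile.

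Nkg7 encodes a membrane protein of cytotoxic granules that takes part in their release. Its signals (1450753_at) were 40.4, 53.2 and 15.95 in mock. They were 72.6, 194 and 215 in HS and 138, 152 and 133 in MC+HS, so the groups did not overlap and HS replicate 1 was the lowest of the vector-injected arrays. With all arrays the difference was 1.70 ± 0.40 in HS (limma adjusted p = 0.153) and 1.65 ± 0.40 in MC+HS (0.193), and neither was called. Without HS replicate 1 it was called higher in both, by 2.14 ± 0.29 in HS (0.00166) and by the same 1.65 with a smaller error of 0.26 in MC+HS (0.00489). With that array left out 4 members were called higher in HS, where 3.78% of all genes were, and 3 in MC+HS, where 3.23% were. No member was called lower in any of these fits, where 0.0375% of all genes were in HS and 0.0225% in MC+HS, or 0.390% and 0.435% without HS replicate 1.

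The stretches around the transcription starts of the granzymes, Nkg7 and Prf1 are shown because the granzymes and, without HS replicate 1, Nkg7 were called and Prf1 was not. RefSeq (GRCm38.p6) held 300-base windows, from 250 bases before to 50 after the start, for 7 of the 10 genes, and Klrd1, Il2rb and Il15 had none. Capitals mark matches, on either strand, to the core of the interferon-stimulated response element (GAAA, any 2 bases, GAAA), the gamma-activated site bound by STAT dimers (TTCNNNGAA) or the T-box site (AGGTGTGA) bound by T-bet and eomesodermin. The windows lie at chr13:113100932-113101231 on the minus strand (Gzma), chr14:56262285-56262584 on the minus strand (Gzmb), chr7:43436888-43437187 on the plus strand (Nkg7) and chr10:61297586-61297885 on the plus strand (Prf1), each written 5′ to 3′ along its gene.
Gzma: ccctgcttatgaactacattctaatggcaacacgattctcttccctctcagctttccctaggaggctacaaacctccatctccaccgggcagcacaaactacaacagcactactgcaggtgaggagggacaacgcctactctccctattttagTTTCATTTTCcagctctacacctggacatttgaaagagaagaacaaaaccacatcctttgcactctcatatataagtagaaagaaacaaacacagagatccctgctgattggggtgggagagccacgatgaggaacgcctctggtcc
Gzmb: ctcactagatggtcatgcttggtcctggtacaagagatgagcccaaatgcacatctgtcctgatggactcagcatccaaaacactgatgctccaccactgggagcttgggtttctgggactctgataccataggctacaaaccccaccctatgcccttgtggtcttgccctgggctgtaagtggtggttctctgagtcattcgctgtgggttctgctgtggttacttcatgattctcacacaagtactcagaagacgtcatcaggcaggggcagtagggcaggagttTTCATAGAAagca
Nkg7: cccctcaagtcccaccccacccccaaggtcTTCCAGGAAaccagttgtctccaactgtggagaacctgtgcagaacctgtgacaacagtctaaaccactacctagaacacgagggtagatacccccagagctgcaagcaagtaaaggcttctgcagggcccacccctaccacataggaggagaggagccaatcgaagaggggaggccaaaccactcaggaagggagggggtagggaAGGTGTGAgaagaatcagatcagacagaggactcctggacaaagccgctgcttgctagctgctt
Prf1: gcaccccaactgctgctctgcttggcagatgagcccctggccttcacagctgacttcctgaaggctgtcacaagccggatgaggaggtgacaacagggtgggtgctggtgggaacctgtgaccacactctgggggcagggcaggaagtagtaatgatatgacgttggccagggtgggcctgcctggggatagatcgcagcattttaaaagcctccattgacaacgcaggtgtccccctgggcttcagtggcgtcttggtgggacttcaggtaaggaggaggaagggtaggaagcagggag
The Gzma window held TTTCATTTTC, the response element core read on the other strand, starting 97 bases before the start. The Gzmb window held TTCATAGAA starting 37 bases after the start. The Nkg7 window held TTCCAGGAA starting 220 bases before the start and AGGTGTGA starting 14 bases before it. None of the 3 motifs overlapped another in these windows, and none was in those of Prf1, Klrk1, Ncr1 or Il15ra. Of 32851 windows of this length, 3.44% held the response element core, 8.3% the gamma-activated site and 1.28% the T-box site. A match describes letters only and shows no binding.

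No receptor that marks NK cells was called. Klrd1 encodes CD94, which pairs with NKG2 chains to read a non-classical class I molecule. Its signals (1460245_at) were 37.0, 52.5 and 53.7 in mock, 128, 122 and 129 in HS, and 49.4, 115 and 115 in MC+HS. HS lay above mock without overlap, while MC+HS replicate 1 sat among the mock arrays. The difference was 1.17 ± 0.29 in HS (limma adjusted p = 0.196) and 0.72 ± 0.29 in MC+HS (0.903), and leaving out HS replicate 1 gave 0.0900 and 0.270, so it was not called.

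Klrk1 encodes NKG2D, an activating receptor for ligands that stressed or infected cells display. It gave 68.8, 76.5 and 108 in mock, 253, 184 and 155 in HS, and 80.3, 141 and 104 in MC+HS (1450495_a_at). The HS arrays were above both other groups, and MC+HS overlapped mock. The difference was 1.08 ± 0.26 in HS (limma adjusted p = 0.157, or 0.0954 without HS replicate 1) and 0.30 ± 0.26 in MC+HS (adjusted p = 1). Ncr1 encodes NKp46, an activating receptor close to specific for NK cells and related innate lymphocytes. Its dim probe set gave 14.7, 34.8 and 46.6 in mock, 91.9, 55.2 and 61.4 in HS, and 36.2, 67.9 and 52.6 in MC+HS, and HS alone was clear of mock. In the fit without the filter the Ncr1 differences were 0.87 ± 0.32 in HS (limma adjusted p = 0.749, or 0.69 and 0.405 without HS replicate 1) and 0.54 ± 0.32 in MC+HS (adjusted p = 1).

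Il2rb, the beta chain through which interleukin-2 and interleukin-15 signal, was read differently by its 2 probe sets. On the brighter one (1417546_at) the signals were 97.7, 93.4 and 115 in mock, 48.0, 142 and 124 in HS, and 124, 120.2 and 156 in MC+HS. MC+HS was above mock without overlap, and in HS replicate 1 was below mock and the others above. The difference was -0.07 ± 0.32 in HS (limma adjusted p = 0.923), turning to 0.34 without HS replicate 1 and to 0.23 without centring, and 0.34 ± 0.32 in MC+HS (adjusted p = 1). On the dimmer one (1448759_at) the signals were 6.5, 11.4 and 22.2 in mock, 203, 68.9 and 67.2 in HS, and 34.1, 89.7 and 51.6 in MC+HS. All vector-injected arrays were above mock there, HS replicate 1 by the widest margin. Without the filter the difference was 2.01 ± 0.44 in HS (limma adjusted p = 0.161) and 1.31 ± 0.44 in MC+HS (0.834). Leaving out HS replicate 1 as well brought HS to 1.55 ± 0.34 and past the threshold (0.0472), and MC+HS to an adjusted p of 0.0661.

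The cytokine interleukin-15 and its receptor alpha chain gave higher values in both vector groups. Il15 gave 37.2, 42.5 and 49.8 in mock, 127, 67.6 and 74.9 in HS, and 72.4, 82.0 and 88.8 in MC+HS. Every vector-injected array was above every mock array. Without the filter the differences of Il15 were 0.80 ± 0.24 in HS (limma adjusted p = 0.511, or 0.56 and 0.294 without HS replicate 1) and 0.72 ± 0.24 in MC+HS (0.843), which did not pass. Il15ra, the alpha chain that presents the cytokine to neighbouring cells, gave on its brighter probe set (1448681_at) 84.5, 153 and 132 in mock, 329, 249 and 359.9 in HS, and 278, 264 and 188 in MC+HS. The groups did not overlap with mock. Its difference was 1.26 ± 0.24 in HS (limma adjusted p = 0.0603) and 0.91 ± 0.24 in MC+HS (0.269), and without HS replicate 1 it was called in HS (1.21 ± 0.25, adjusted p = 0.022) and reached 0.0527 in MC+HS. The other Il15ra probe set (1422397_a_at) ran from 114 to 125 in mock, 113 to 165 in HS and 107 to 149 in MC+HS, with overlap, and differed by 0.22 ± 0.19 (0.38 without HS replicate 1) and 0.03 ± 0.19.

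Over the 13 probe sets, 9 had all HS arrays above all mock arrays, where 4.41% of all probe sets did, and 7 had all MC+HS arrays above mock, where 7.17% did. Without HS replicate 1 the count for HS was 11, beside 15.6% of all probe sets. The 9 comprised Gzma, Gzmb, Nkg7, Klrd1, Klrk1, Ncr1, Il15 and 1 probe set each of Il2rb and Il15ra. One probe set, Prf1 1450335_at, lay below mock in both, where 7.96% and 8.33% of all probe sets did. An unadjusted limma p under 0.05 was reached by 6 tested member probe sets in HS, 5 in MC+HS and 2 between the vector groups, beside 1886, 1383 and 847 of the 28257 tested.

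**Figure D2:**
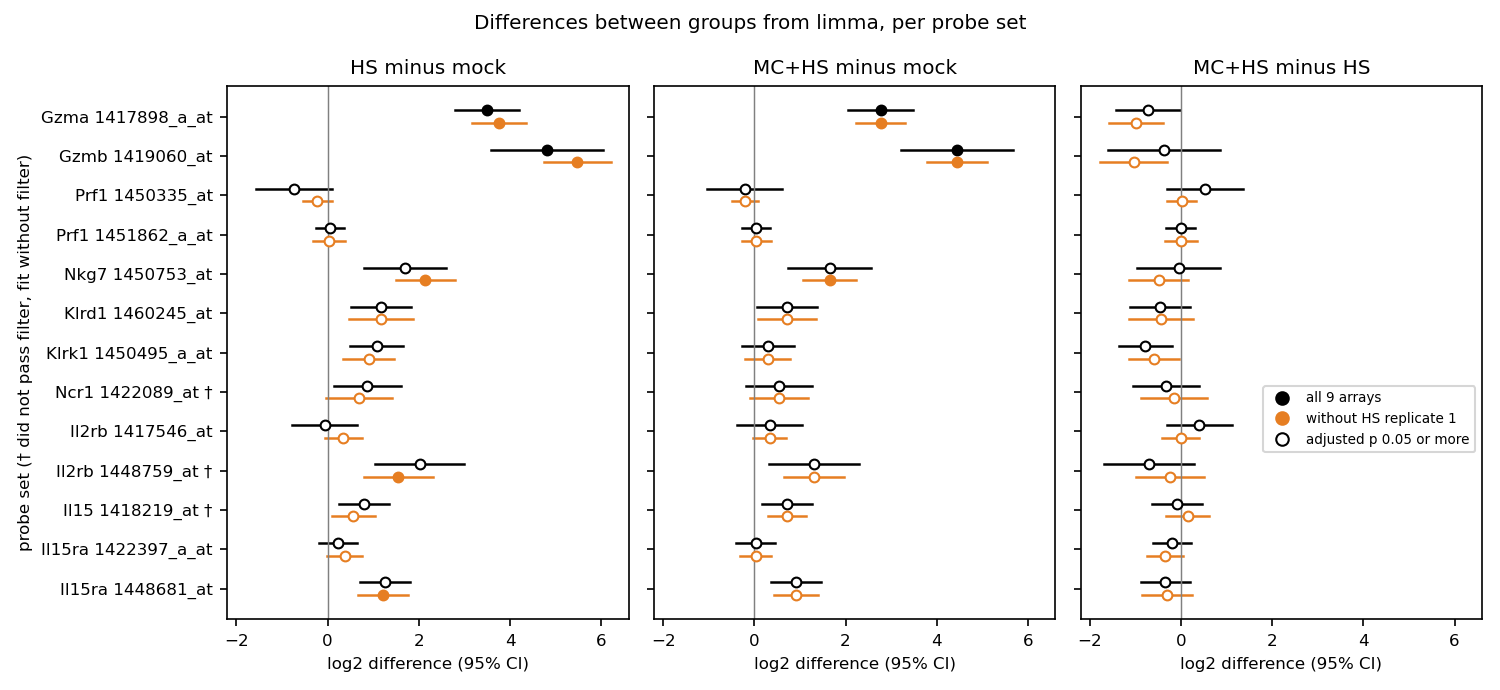
Log2 difference with its 95% confidence interval for each probe set in each vector group against mock (left and middle) and between the vector groups (right), with all 9 arrays (black) and without HS replicate 1 (orange), filled where the limma adjusted p was under 0.05 and with a dagger for probe sets tested without the filter. Gzmb (4.81 and 4.44) and Gzma (3.49 and 2.77) are filled in both comparisons with mock, and no point is filled between the vector groups.

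The direct comparison of the purifications asked whether chromatography altered this response. No member was called between MC+HS and HS, and 0% of all genes were called in either direction with all arrays. Leaving out HS replicate 1 again gave 0 member calls, and 0.00750% of all genes were called higher. The estimates for the granzymes were below 0, which is lower in MC+HS. Gzma differed by -0.72 ± 0.31 (95% interval -1.43 to -0.01; limma adjusted p = 0.728), and without HS replicate 1 by -0.98 ± 0.27 (-1.57 to -0.39; 0.432). Gzmb differed by -0.37 ± 0.55 (-1.60 to 0.86; 0.784), and by -1.03 ± 0.33 without that array (-1.76 to -0.30; 0.538). With all arrays the intervals leave room for granzyme levels in MC+HS that are well below those in HS or, for Gzmb, above them.

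Klrk1 differed directly by -0.78 ± 0.26 (-1.36 to -0.20; limma adjusted p = 0.728), or by -0.60 ± 0.25 without HS replicate 1 (0.622). Klrd1 differed by -0.45 (-1.11 to 0.21), and by -0.44 without that array. Nkg7 differed by -0.05 (-0.95 to 0.85), which turned to 0.18 with quantile normalization and was -0.49 without HS replicate 1. Klrd1 and Klrk1 had all MC+HS arrays below all HS arrays, where 3.21% of all probe sets did. Once HS replicate 1 was left out, this held for 6 of the 13, namely Gzma, Gzmb, Nkg7, Klrd1, Klrk1 and Il15ra 1422397_a_at, beside 12.3% of all probe sets. Il15 differed by -0.08 (-0.63 to 0.46), turning to 0.15 without HS replicate 1, and Il15ra by -0.34 (-0.89 to 0.20), or -0.30 without it. A fit that weights arrays by quality called Gzma, Gzmb and Klrk1 lower in MC+HS, but it called 2498 probe sets higher and 4038 lower in the same comparison.

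The arrays of MC+HS kept a similar order over many members. Of the MC+HS arrays, replicate 1 was the lowest for 10 of the 13 probe sets, against 28.0% of all probe sets, and replicate 2 was the highest for 8, against 25.9%. Gzmb in MC+HS replicate 2 was near the level of the brightest HS arrays (1040.5 against 1228 and 1224). In HS, replicate 1 was highest for 5 and lowest for 6, while it was the highest for 40.6% and the lowest for 51.8% of all probe sets. Its place among the HS arrays thus went to either extreme for members as for the rest of the array.

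**Figure D3:**
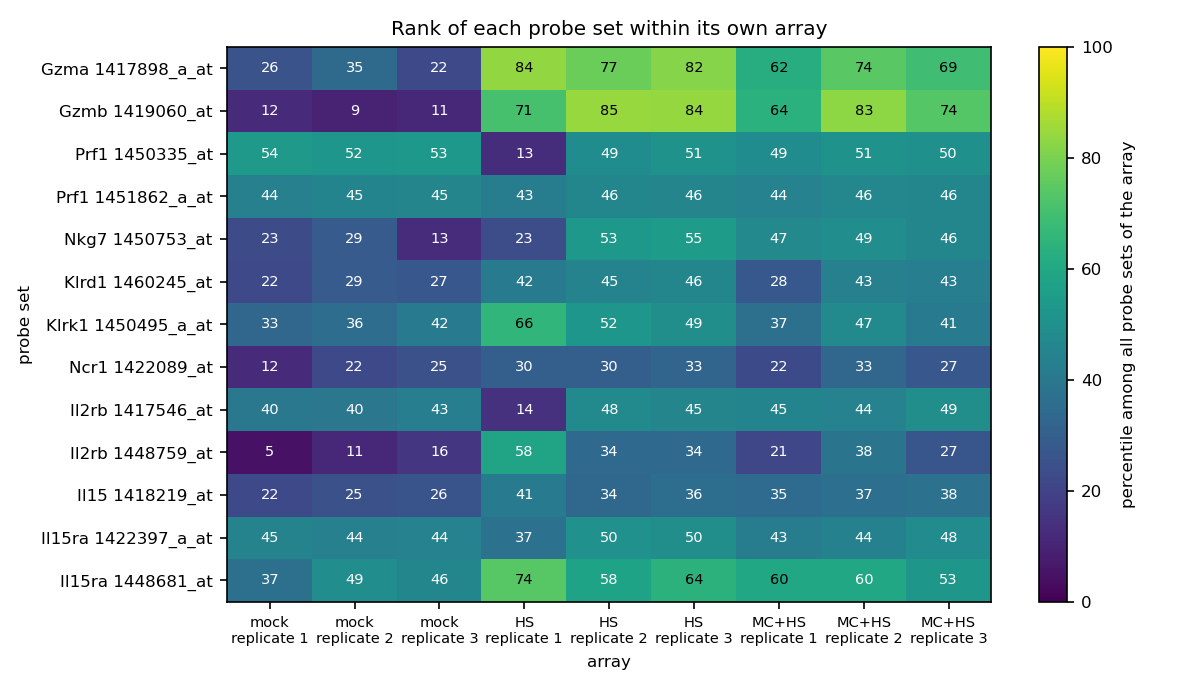
Percentile of each of the 13 probe sets among all signals of its own array (rows are probe sets, columns the 9 arrays, colour from 0 to 100), which uses no scaling between arrays and is not a measure of transcript number. Gzmb goes from between 9.4 and 11.9 in mock to between 63.9 and 84.7 in the vector-injected mice, and Prf1 1450335_at drops to 13.2 in HS replicate 1 alone.

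Around the members, 9 lists of the cytotoxic pathway held 72 further genes past the filter. Of these, 6 were called higher in HS and 4 in MC+HS, none was called lower, and none was called between the purifications, where 0.893% of all genes were called higher in HS and 0.690% in MC+HS. Without HS replicate 1 the counts were 18 and 15, beside 3.78% and 3.23% of all genes. The lists were drawn up with earlier results of these data known. The chemokine and cytokine list, of signals that draw in or activate NK cells, held 17 measured genes. Ccl5, Cxcl9 and Cxcl11 were called higher in both comparisons, and without HS replicate 1 there were 7 in each. Ccl5, a chemokine that cytotoxic lymphocytes also make, was 5.47 ± 0.72 higher in HS (limma adjusted p = 0.0114) and 5.08 in MC+HS (0.0207). The CXCR3 ligand genes rose in HS by 3.78 ± 0.32 for Cxcl9 (limma adjusted p = 0.00176) and 4.16 ± 0.49 for Cxcl11 (0.00713), and in MC+HS by 3.44 (0.00481) and 4.11 (0.0103). Without HS replicate 1 the HS values were 5.39 for Ccl5, 3.86 for Cxcl9 and 4.52 for Cxcl11, all called. The list's median was 0.51 in HS and 0.59 in MC+HS, beside -0.23 and 0.01 over all genes.

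Proteins that restrain granzymes and cytokine receptors gave further calls. Serpinb9 encodes the inhibitor of granzyme B that shields cells from their own protease. It was 1.27 ± 0.19 higher in HS (limma adjusted p = 0.0185) and 1.01 ± 0.19 in MC+HS (0.0612), as the 1 of 8 measured genes for protection and substrates that was called. Serpinb9 and Serpinb6b were called in both without HS replicate 1. Of 10 genes of interleukin-2 and interleukin-15 signalling, Socs3, a feedback inhibitor of JAK-STAT signalling, was called higher in both (2.10 ± 0.33, limma adjusted p = 0.0253, and 2.20 ± 0.33, 0.026), and its value in HS was 2.44 without HS replicate 1. Of 4 measured ligands of NK receptors, Nectin2, a ligand of the receptors DNAM-1 and TIGIT, was called in HS (0.91 ± 0.16, limma adjusted p = 0.0459) and had an adjusted p of 0.0535 in MC+HS. With HS replicate 1 left out, Nectin2 was called higher in both (limma adjusted p = 0.0136 and 0.00891). In that fit the ligand gene Clec2d and the signalling gene Socs1 were also called higher, in HS only.

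The remaining lists gave no call with all arrays. The list of other granzymes and death ligands held 11 genes, with the cytokine gene Ifng among them. Of these, 8 were below the 40th percentile on every array, namely Gzmc to Gzmg, Gzmn, Fasl and Ifng. The 3 measured were Tnfsf10, which encodes the death ligand TRAIL (0.99 ± 0.22 in HS, limma adjusted p = 0.116, and 0.96 ± 0.22 in MC+HS, 0.154), Gzmk (0.11 in HS) and Gzmm (-0.14 in HS). Tnfsf10 was called higher in both without HS replicate 1. Of 9 measured genes for loading and release of granules, none was called, and without HS replicate 1 Ctsc, whose protease activates granzymes, and Srgn, the granule proteoglycan, were called higher in both. Of 8 measured lineage transcription factors none was called, though Ets1 was called higher in HS without HS replicate 1, and Tbx21, Runx3 and Gata3 were below the 40th percentile on every array. Of 8 adaptor and signalling genes none was called, with or without HS replicate 1.

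**Figure D4:**
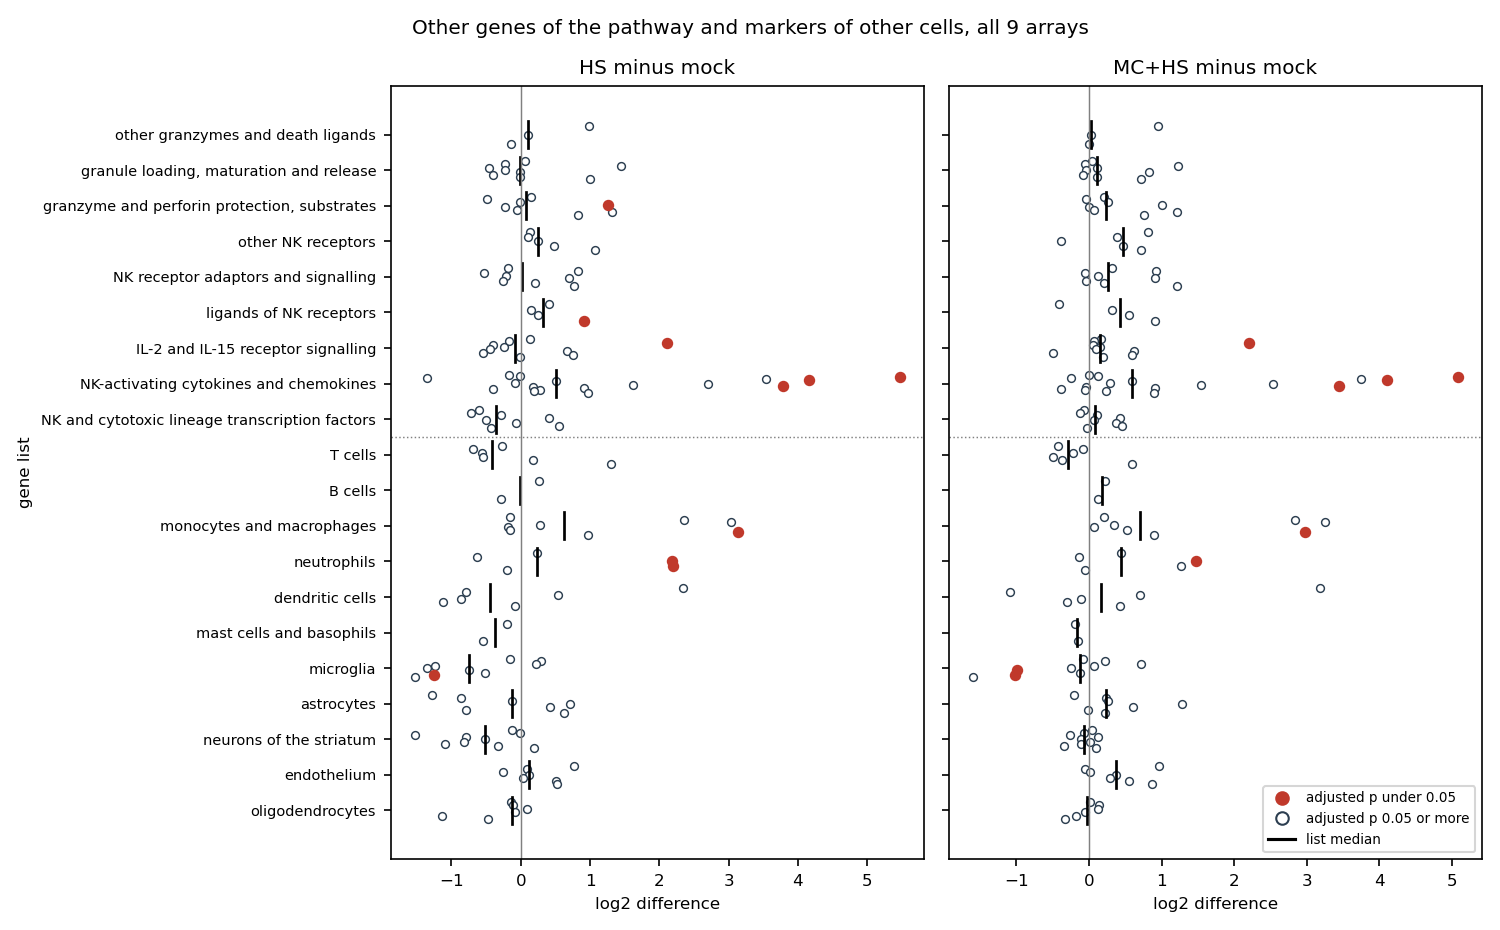
Log2 differences of the measured genes of the 9 pathway lists and of the marker lists in HS against mock and MC+HS against mock, 1 point per gene, with genes called at a limma adjusted p under 0.05 filled. The calls among the pathway lists are few (6 of 72 genes in HS and 4 in MC+HS) and include Ccl5 at 5.47 and 5.08.

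Which cells carried the granzyme transcripts was not measured, and genes of the candidate cell types are given beside them. Of 20 further NK receptor genes named on the array, 12 were below the 40th percentile on all arrays, among them Klrb1a, Klrb1b, Klrb1f and Klrc1 to Klrc3. The 5 measured ones gave no call, and without HS replicate 1 Fcgr3, an Fc receptor that myeloid cells also carry, was called higher in both comparisons. Of 13 T cell genes, 6 were measured and 0 were called in either comparison, with or without HS replicate 1. The summed signal of the 13 was 1111 to 1182 in mock, 912 to 1336 in HS and 914 to 1074 in MC+HS, the highest in HS being replicate 1. Cd3d, Cd3g, Cd8b1, Cd2 and Cd28 were below the 40th percentile on every array. The median difference of the measured T cell genes was -0.41 in HS and -0.30 in MC+HS, beside -0.23 and 0.01 over all genes. Without HS replicate 1 it was -0.23 in HS, beside 0.05 over all genes.

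Some myeloid genes were called in the same comparisons as the granzymes. Of 8 measured monocyte and macrophage genes, Chil3 was called higher in both (3.14 ± 0.31 in HS, limma adjusted p = 0.0032, and 2.97 ± 0.31 in MC+HS, 0.0065), and without HS replicate 1 so were Plac8 and Ms4a4c. The summed signal of this list was 2436 to 4296 in mock, 2678 to 9178 in HS and 6714 to 7425 in MC+HS, the lowest in HS being replicate 1. Of 5 measured neutrophil genes, S100a8 and S100a9 were called higher in HS and S100a9 in MC+HS. Without HS replicate 1, S100a8 and S100a9 were called higher in both. The summed signal of the neutrophil list was 833 to 919.9 in mock, 1189 to 1653 in HS and 1099 to 1331 in MC+HS. Microglial Gpr34 was called lower in both and P2ry12 in MC+HS, and without HS replicate 1 these and Fcrls were called lower in both. Of 6 measured dendritic cell genes 0 were called, and without HS replicate 1 Bst2 was called higher and Siglech lower in both. Genes of astrocytes (7), endothelium (7), oligodendrocytes (6) and striatal neurons (9) gave 0 calls with all arrays. With HS replicate 1 left out, 4 astrocyte genes (Aqp4, Gfap, Aldh1l1, Sox9) were called higher in HS and 2 (Gfap, Aldh1l1) in MC+HS, the endothelial Cldn5 and Cdh5 were called higher in both, and the other 2 lists again gave 0 calls. Of 2 measured genes each of B cells and of mast cells and basophils, 0 were called. The part of these cell types in the granzyme values was not tested.

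The genes whose log2 signals tracked Gzmb most closely over the 9 arrays were Hcar2 (Pearson r = 0.991), AW112010 (0.987), Ms4a4b (0.986), Ubd (0.983) and Gm4951 (0.983). For Gzma they were Ch25h, Ms4a4b, Gimap4, Irgm1 and Iigp1, with r from 0.989 to 0.991. Gzma and Gzmb correlated at 0.975, and Gzmb and Prf1 at -0.23, or at -0.757 over the 8 arrays without HS replicate 1. For Il15, whose closest genes began with Morrbid at 0.959, a different gene, Col20a1 (0.967), came first without HS replicate 1. With that array left out Il6 (0.995) came first for Gzmb and Cxcl1 (0.997) for Gzma. These arrays share groups with large mean differences, so high values arise for any pair of genes that differ between vector and mock, and they are a description only.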

How the data were processed

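Total RNA of brain tissue around the injection sites was hybridized as biotin-labelled cRNA, 1 array per mouse, per the labels' protocols. The deposited values are linear probe set intensity values. The submitters' processing notes name GCOS 1.4.0.036, and the way these deposited intensities were summarised or scaled was not given in the sources used here. Detection calls were not used, so dim signals carry no bound. The number of arrays limits the precision, with a median 95% half-interval of 0.603 on the log2 scale.

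Signals were turned into log2(signal + 16) and each array's median moved to that of the 9 medians. The largest shift was 0.66, for HS replicate 3. The 64 control probe sets, and those that exceeded the 40th percentile of signals on fewer than 3 arrays, were left out. Before the filter on dim signals, 34945 of the 45037 probe sets that were not controls carried 1 symbol in the annotation, 932 several and 9160 none. The probe set with the highest mean stood for a gene. All 9 arrays were fitted together with group as the single factor (limma 3.58.1, R 4.3.3, statmod 1.5.0, lmFit and eBayes with trend), two-sided, with Benjamini-Hochberg adjustment over all tested probe sets of a comparison and calls under 0.05. The script was tested on simulated data.

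All members are named. From other lists the text gives counts and up to 4 genes with the smallest p, and from the marker lists the called genes. Members, lists and alternatives were chosen with earlier results of these data known. Same-numbered arrays of different groups correlated at -0.17 to 0.29 in their deviations, and differently numbered ones at -0.32 to 0.16. The highest values were those of MC+HS with mock for replicate 3 (0.29) and replicate 1 (0.26). The numbers were not used as pairs in the reported fit, and counts with a replicate block are given below.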

Additional observations from a re-analysis of the deposited data

How the results depend on the processing

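HS replicate 1 limits what is known of the HS group. The dim probe sets of Ncr1, Il15 and Il2rb did not pass the filter, and Gzmb in mock lay at or below the 11.9th percentile, so the size of their differences depends on the pseudocount. With 3 arrays per group the median 95% interval reached 0.603 to either side on the log2 scale. Over the alternatives, 712 values of single genes kept their direction and side of the threshold, 24 passed it newly, 9 no longer passed it and 20 changed sign. The count of members called in HS against mock was 2, and it was 2 to 4 with 1 array left out, 1 with only the 6 arrays compared, 8 with array quality weights, and 4 without the filter and HS replicate 1. The 8 called with array weights were all the tested members, among them Klrd1 and Klrk1, and Prf1 was called lower there. In MC+HS against mock it was 2, and 0 to 3 with 1 array left out and 5 with array weights. Between the vector groups it was 0, also with any 1 array left out, and 3 with array weights. With HS replicate 1 and 1 further array left out (chosen after seeing the data, as was the joint setting above) the counts were 3 to 5, 3 to 4 and 0. Array weights called 4017 probe sets higher and 3759 lower in HS against mock, where the reported fit called 211 and 8, the fit without HS replicate 1 called 830 and 100, and the 6 arrays alone 15 and 0. In MC+HS against mock the reported 157 and 7 became 703 and 234 without HS replicate 1, and 10 and 0 without MC+HS replicate 2. With the replicate block the counts were 2, 2 and 0, and only 4 of 9 arrays correlated best with their own number. Signs changed where differences were near 0. Il2rb (1417546_at) in HS against mock was 0.23 without centring, 0.46 with array weights and -0.31 to 0.34 with 1 array left out. Between the vector groups it was -0.078 with array weights and -0.0026 to 0.65. The second Prf1 probe set was -0.0013 with quantile normalization in HS against mock, and between the vector groups it was 0.0050 with a pseudocount of 64, 0.051 with quantile normalization, 0.020 with array weights and -0.036 to 0.041 with 1 array left out. The second Il15ra probe set in MC+HS against mock was -0.092 to 0.12 with 1 array left out. Between the vector groups, Nkg7 was 0.18 with quantile normalization and -0.49 to 0.20 with 1 array left out, Il15 was 0.24 with array weights and -0.23 to 0.15, and Ncr1 was 0.0055 with array weights. The cause of these shifts was not tested.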
